A study of Homo sapiens with 18 samples.

Results

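The genes described here are the EGR transcription factors EGR1, EGR2, EGR3 and EGR4, the immediate-early response genes IER2, IER3, IER5 and IER5L, and SRF, the serum response factor. These 9 genes were chosen by name, out of 24339 genes with a count, to set early genes of the serum-response type beside the cAMP response. RNA-Seq was done on HEK293 cells, a human embryonic kidney line, that were wildtype, β-arrestin1/2 KO (lacking both β-arrestins) or Gαs KO (lacking the stimulatory G protein α subunit, encoded by GNAS). All cells, basal ones included, carried a transfected receptor plasmid and had been serum starved overnight. At 48 h after transfection they received vehicle (basal) or 1 μM isoproterenol, a β-adrenergic agonist, for 1 h, which gave 6 groups of 3 biological replicates. The labels number the replicates and do not say whether they came from separate cultures on separate days, so p-values measure the spread between these libraries.

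Immediate-early genes are transcribed within minutes of a stimulus without new protein synthesis. Many of them, EGR1 and EGR2 included, carry CArG boxes in their promoters, sites bound by SRF together with ETS-family cofactors that ERK phosphorylates or with actin-regulated MRTF cofactors. The cAMP response runs by another route: Gαs activates adenylyl cyclase, cAMP activates PKA, and PKA phosphorylates CREB, which binds the cAMP response element (CRE). The EGR proteins are zinc finger factors, of which EGR1, EGR2 and EGR3 are held back by the corepressors NAB1 and NAB2. IER2, IER5 and IER5L share an N-terminal domain, whereas IER3 is a small unrelated protein linked to survival and ERK signaling.

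The promoter sequences of EGR1, EGR2 and SRF are shown because each of these windows carries letters of the sites of both routes. Each run is the 250 bases before a RefSeq transcription start (GRCh38.p14), written 5′ to 3′ on the gene's strand, with CArG boxes and CRE cores in capitals. A CRE core is TGACG or its reverse complement CGTCA, so that a full CRE, TGACGTCA, would contain it on both strands. EGR1 lies at chr5:138465229-138465478 on the plus strand, EGR2 (the third listed start, next to that of the main coding transcript) at chr10:62816367-62816616 on the minus strand, and SRF (the first listed start) at chr6:43171019-43171268 on the plus strand.
EGR1: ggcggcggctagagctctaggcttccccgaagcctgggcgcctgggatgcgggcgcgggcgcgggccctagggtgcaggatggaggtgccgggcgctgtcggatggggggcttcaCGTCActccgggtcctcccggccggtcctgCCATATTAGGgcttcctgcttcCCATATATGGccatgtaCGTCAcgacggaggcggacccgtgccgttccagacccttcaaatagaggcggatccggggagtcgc
EGR2: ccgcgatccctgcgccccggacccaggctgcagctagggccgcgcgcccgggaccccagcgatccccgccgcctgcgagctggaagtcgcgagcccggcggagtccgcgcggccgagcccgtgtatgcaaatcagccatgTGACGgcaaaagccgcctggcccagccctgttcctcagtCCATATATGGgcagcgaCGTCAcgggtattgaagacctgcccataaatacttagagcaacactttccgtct
SRF: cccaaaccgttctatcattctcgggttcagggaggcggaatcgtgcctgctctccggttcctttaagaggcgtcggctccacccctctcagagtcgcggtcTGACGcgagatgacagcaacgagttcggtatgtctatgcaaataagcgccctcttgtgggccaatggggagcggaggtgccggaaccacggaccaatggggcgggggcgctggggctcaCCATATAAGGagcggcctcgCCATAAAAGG
In EGR1 the CArG boxes CCATATTAGG and CCATATATGG stood at positions -105 to -96 and -83 to -74 before the start, between CRE cores at -135 to -131 and -66 to -62. EGR2 had 1 CArG box, CCATATATGG at -71 to -62, with CRE cores at -110 to -106 and -54 to -50. SRF itself had 2 CArG boxes, CCATATAAGG at -30 to -21 and CCATAAAAGG at -10 to -1, 1 CRE core, and 1 match to the EGR site GCGGGGGCG at -49 to -41. A CArG box was present in 1.16% of 35116 promoter windows of the same length, a CRE core in 21.2%, a full CRE in 1.65% and the EGR site in 4.72%, each searched on both strands. The EGR4 window held 2 CRE cores and no CArG box, that of IER2 held 1 CRE core and no CArG box, and those of IER5 and IER5L held none of these letters. The first and second listed starts of EGR2 and the second of SRF held none of them either. EGR3 and IER3 had no entry. No window of a member held a full CRE. A match describes letters and not binding, and none of these results was tied to a site by a test.

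In the annotation (GRCh38, GENCODE release 29) the genes lie on separate chromosomes apart from IER3 (chr6:30743199-30744554, minus strand) and SRF (chr6:43171299-43181507, plus strand). EGR1 spans chr5:138465490-138469315 and IER2 chr19:13150415-13154908, both on the plus strand. EGR1, IER5, IER5L and SRF were each counted from 1 transcript. No counts were found for the annotated antisense or overlapping genes of EGR3, IER2, IER3 and IER5L. A gene without reads and a gene that was not quantified cannot be told apart here.

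Library totals ran from 17908597 to 25019834 expected counts (median 20419460). The values below are normalized counts, scaled by edgeR's TMM method to a common library size, and a difference was called where the Benjamini-Hochberg adjusted p of edgeR's quasi-likelihood test over 15781 genes was under 0.05. GNAS stood at 1262 ± 96.8 normalized counts in basal Gαs KO cells against 25069 ± 7076 in wildtype cells (SD, n = 3). In β-arrestin1/2 KO cells ARRB2 stood at 398 ± 48.9 against 1882 ± 533, and ARRB1 at 787 ± 57 against 943 ± 262, so the transcript level marks the ARRB2 edit and not the ARRB1 edit. HEK293-type markers were present in all libraries, and of 8 markers of blood, endothelium, fibroblast and hepatocyte only COL1A1 passed the filter on low counts, while CD3E and APOA2 had no counts. The summed level of the 8 markers was 546 to 926 in basal wildtype, 774 to 789 in basal β-arrestin1/2 KO and 381 to 458 in basal Gαs KO libraries, nearly all of it COL1A1, and its part in the differences between lines was not tested. Replicate 1 of basal wildtype cells stood apart, with a mean GC content of its counts of 52.49% against 49.15 to 50.1% in the other 17 libraries, and results that rest on it are given with and without it. In β-arrestin1/2 KO cells GC was 49.76 to 50.1% in basal and 49.29 to 49.43% in treated libraries, without overlap, so GC and treatment go together in that line. In wildtype and Gαs KO cells these ranges overlapped. Fits with GC and length offsets are among the other settings given below. In bulk RNA, a change in all cells and a change in a share of them cannot be told apart.

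Per length, in TPM (a share of all transcript molecules that is corrected for length), IER2 was the most abundant member in 3 of the 6 groups, from 70.3 ± 10.3 in basal wildtype to 214 ± 6.47 in β-arrestin1/2 KO cells with isoproterenol (SD, n = 3). IER5 (39.8 to 87.4), SRF (34.5 to 46.4) and IER3 (21.5 to 65) followed in group means, and IER5 exceeded IER2 in basal β-arrestin1/2 KO and in both groups of Gαs KO cells, with overlapping libraries. IER5L (8.94 to 29.7 TPM) and EGR1 (8.89 to 17.6 TPM) were lower. EGR2 (0.521 to 2.95 TPM) and EGR3 (0.549 to 3.4 TPM) were rare. EGR4 was near the detection limit, with a highest group mean of 0.141 TPM. So 8 of the 9 members passed the filter and were tested, and EGR4 did not.

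**Figure D1:**
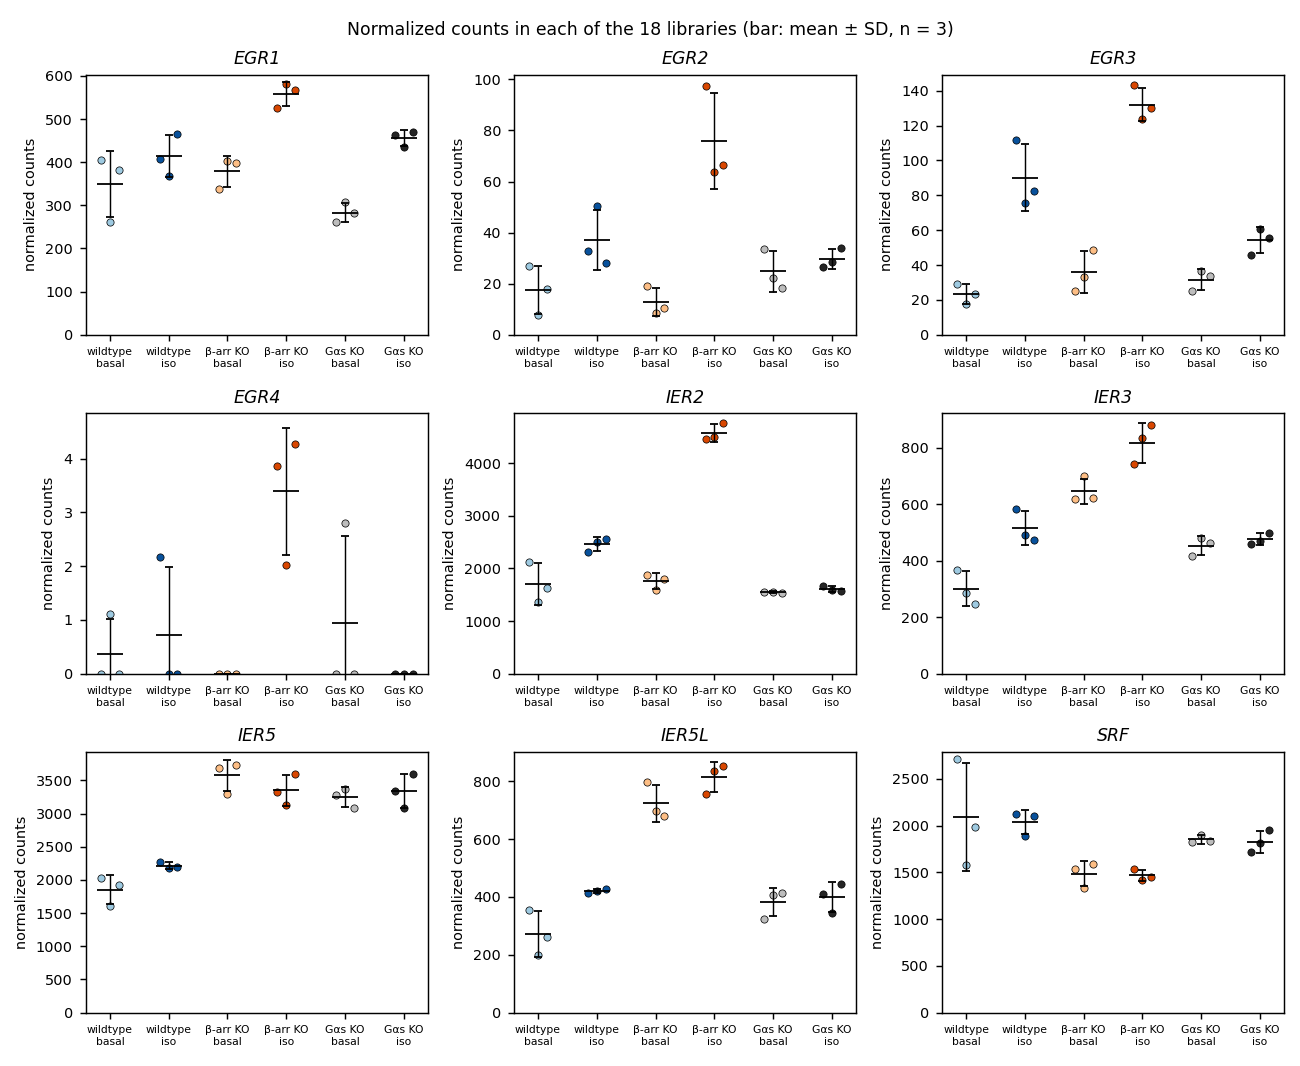
Normalized counts (vertical axes, each from 0) of the 9 genes in the 18 libraries by cell line and treatment (basal or isoproterenol, iso), with points for libraries and bars for mean ± SD (n = 3). EGR3 and IER2 stand highest in β-arrestin1/2 KO cells with isoproterenol, EGR1 in Gαs KO cells goes from 262 to 307 up to 436 to 471, and SRF stays level within each line.

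EGR3, the zinc finger factor with the clearest response, had 28.9, 17.8 and 23.5 normalized counts in the 3 basal wildtype libraries and 112, 75.8 and 82.5 with isoproterenol. Without the β-arrestins it had 25.3, 33.2 and 48.8 at basal and 143, 124 and 130 with isoproterenol. All treated libraries lay above all basal ones in both lines, and the treated β-arrestin1/2 KO libraries also lay above the treated wildtype libraries. EGR3 rose by 1.94 ± 0.266 on the log2 scale (SE), or 3.83-fold, in wildtype cells (adjusted p = 0.000772) and by 1.89 ± 0.252, or 3.7-fold, in β-arrestin1/2 KO cells (adjusted p = 0.000318). The wildtype call was lost in a fit to the wildtype libraries alone (adjusted p = 0.212). The difference between these responses was -0.05 (95% interval -0.79 to 0.69, adjusted p = 1). The Gαs KO libraries had 25.2, 36.4 and 33.5 EGR3 counts at basal and 46, 60.8 and 55.7 with isoproterenol, again without overlap. That difference of 0.77 ± 0.258 (1.7-fold, unadjusted p = 0.00854) had an adjusted p of 1, and the Gαs KO response minus that of wildtype was -1.17 (95% interval -1.95 to -0.39, adjusted p = 0.726).

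EGR1, the most abundant EGR gene, had point estimates in another order, smallest in wildtype cells. Basal wildtype libraries had 404, 261 and 381 normalized counts and treated ones 407, 369 and 466, which overlap. The values were 337, 403 and 397 at basal and 526, 581 and 567 with isoproterenol in β-arrestin1/2 KO cells, and 262, 307 and 282 at basal and 463, 436 and 471 with isoproterenol in Gαs KO cells. In both KO lines every treated library lay above every basal one, and in both the gap between the groups was wider than the range within either group. The log2 differences were 0.24 ± 0.139 in wildtype (adjusted p = 0.527), 0.56 ± 0.137 in β-arrestin1/2 KO (adjusted p = 0.0716) and 0.69 ± 0.139 in Gαs KO cells (1.61-fold, unadjusted p = 0.000134, adjusted p = 1), so none was called. The β-arrestin1/2 KO response of EGR1 was called in 4 of 12 other settings, namely by DESeq2's Wald test (adjusted p = 0.00861), in a fit to these libraries alone (adjusted p = 0.00633) and with GC and length offsets without and with the replicate block (adjusted p = 0.00199 and 0.00164). In the Gαs KO line EGR1 had the smallest unadjusted p of all 15781 genes tested, and EGR3 ranked 27th. DESeq2's Wald test called EGR1 there (adjusted p = 0.0142, 4 genes called in all), as did edgeR fitted to the Gαs KO libraries alone (adjusted p = 0.0292), where EGR1 was the 1 gene called. The Gαs KO response minus that of wildtype was 0.44 (95% interval 0.03 to 0.86, adjusted p = 0.889), and without replicate 1 of basal wildtype it was 0.32 (adjusted p = 0.657). No difference between lines in the EGR1 response was therefore called.

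EGR2, known for its roles in hindbrain patterning and myelination, was counted by 7 to 101 reads per library. Its normalized counts were 26.8, 7.78 and 17.9 at basal and 32.7, 50.5 and 28.2 with isoproterenol in wildtype cells, and 19, 8.69 and 10.6 at basal and 97.4, 63.9 and 66.3 with isoproterenol in β-arrestin1/2 KO cells. Treated libraries lay above basal ones in both lines, narrowly so in wildtype cells. EGR2 rose by 2.58 ± 0.413 on the log2 scale (5.98-fold, adjusted p = 0.00217) in β-arrestin1/2 KO cells, the largest response of any member tested. In wildtype cells the difference was 1.08 ± 0.408 (2.11-fold, adjusted p = 0.405). Basal values of 33.6, 22.4 and 18.4 and treated values of 26.4, 28.5 and 34.1 overlapped in Gαs KO cells, with a log2 difference of 0.26 ± 0.396 (adjusted p = 1). The β-arrestin1/2 KO response exceeded that of Gαs KO cells by 2.32 ± 0.57 without reaching the threshold (adjusted p = 0.15), while DESeq2's Wald test (adjusted p = 0.00995) and the fit to the 4 groups compared (adjusted p = 0.0127) called it.

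EGR4, a member best known from neurons, was at 4, 2 and 4 counts in the treated β-arrestin1/2 KO libraries. Elsewhere 3 of the 15 libraries had a count, of 1 to 3, and basal β-arrestin1/2 KO libraries had none, with up to 3 counts allowed by a total of 0. At this depth no fold or test was given.

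IER2, a nuclear protein induced by many mitogens, had 2129, 1355 and 1630 normalized counts in basal and 2311, 2509 and 2563 in treated wildtype libraries. The β-arrestin1/2 KO libraries had 1882, 1593 and 1806 at basal and 4453, 4498 and 4773 with isoproterenol. Gαs KO libraries had 1561, 1552 and 1530 at basal and 1666, 1586 and 1562 with isoproterenol. The treated groups of the 3 lines did not overlap each other, and the treated β-arrestin1/2 KO libraries stood far above all others. IER2 rose by 1.38 ± 0.119 on the log2 scale (2.6-fold, adjusted p = 1.76e-06) in β-arrestin1/2 KO cells. In wildtype cells the difference was 0.53 ± 0.118 (1.44-fold, adjusted p = 0.069), and in Gαs KO cells 0.05 ± 0.118 (adjusted p = 1), where the 3 treated libraries lay narrowly above the basal ones. Without replicate 1 of basal wildtype, whose IER2 count was the highest of that group, IER2 rose in wildtype cells by 0.72 (adjusted p = 6.68e-06). DESeq2's Wald test also called it (0.52, adjusted p = 0.00496).

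The IER2 response of β-arrestin1/2 KO minus that of Gαs KO was 1.33 ± 0.167 on the log2 scale (adjusted p = 0.000335), and it was the 1 member called in any difference of responses. Against wildtype cells the β-arrestin1/2 KO response was larger by 0.85 ± 0.167 with an adjusted p of 0.065. That contrast was called by DESeq2's Wald test (adjusted p = 0.000754) and without replicate 1 of basal wildtype (0.66, adjusted p = 0.00104).

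IER2 was also the member whose transcripts could be told apart with useful counts. The spliced transcript ENST00000292433 (2085 bases) held 80.3% of its counts and the single-exon transcript ENST00000588173 (2934 bases), which starts inside the intron of the spliced form, 16.6%. In β-arrestin1/2 KO cells the spliced transcript had 1475, 1162 and 1368 normalized counts at basal and 4070, 3946 and 4425 with isoproterenol. The single-exon transcript had 403, 353 and 422 at basal and 387, 379 and 326 with isoproterenol, with overlap. In wildtype cells the spliced form went from 1309, 1050 and 1207 to 1918, 1940 and 2276, and the single-exon form from 597, 278 and 375 to 389, 435 and 287, its highest value being in replicate 1 of basal wildtype. The share of the single-exon form was 22.3% at basal and 7.99% with isoproterenol in β-arrestin1/2 KO cells, 24.5% and 15.1% in wildtype cells, and 23.6% and 21.8% in Gαs KO cells. These are Salmon's estimates of how shared reads divide, and no test was run on transcripts.

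**Figure D2:**
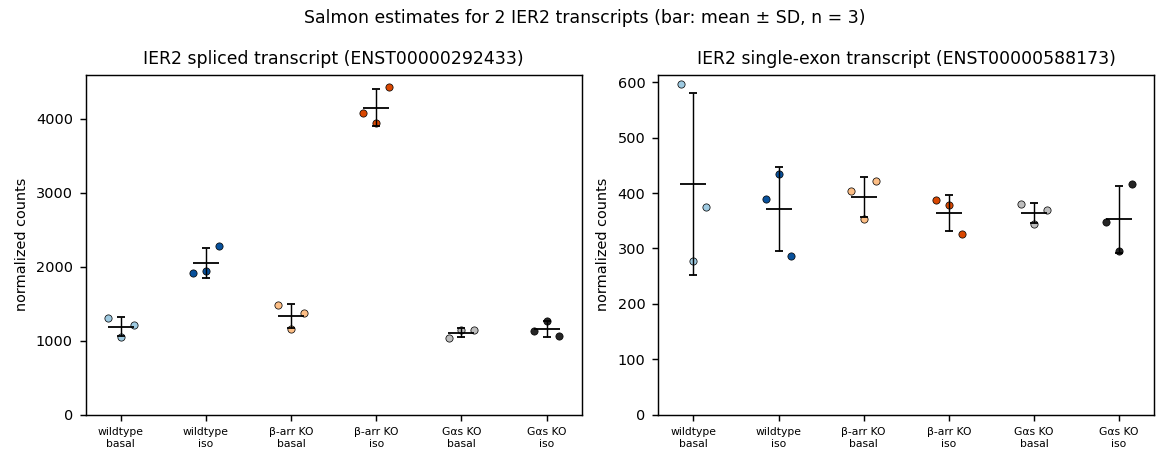
Normalized counts (vertical axes, each from 0) of the spliced (left) and single-exon (right) IER2 transcripts in the 18 libraries, with points for libraries and bars for mean ± SD (n = 3). The spliced form averages 4147 in treated β-arrestin1/2 KO cells against 1335 at basal, while the single-exon form averages 353 to 416 in all 6 groups.

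In the fit of all 18 libraries, the response of IER3, the small survival-linked protein, was called in wildtype cells alone. No difference between lines in its response was called there. It had 368, 287 and 247 normalized counts at basal and 585, 491 and 473 with isoproterenol in wildtype libraries, without overlap. The β-arrestin1/2 KO libraries had 619, 699 and 621 at basal and 742, 836 and 881 with isoproterenol, also without overlap. Gαs KO libraries had 418, 481 and 464 at basal and 458, 471 and 499 with isoproterenol, which overlap. IER3 rose by 0.78 ± 0.131 on the log2 scale (1.72-fold, adjusted p = 0.00603) in wildtype cells, and the differences were 0.34 ± 0.126 (adjusted p = 0.388) in β-arrestin1/2 KO and 0.07 ± 0.128 (adjusted p = 1) in Gαs KO cells. The wildtype call was lost without replicate 1 of treated wildtype cells (0.68, adjusted p = 0.0504) and in a fit to the wildtype libraries alone (adjusted p = 0.953). The β-arrestin1/2 KO response of IER3 was called in 3 of 12 other settings, with log2 values from 0.30 to 0.43 over the 12. Compared with wildtype, the response was smaller by 0.44 in β-arrestin1/2 KO cells (adjusted p = 0.773) and by 0.71 in Gαs KO cells (adjusted p = 0.305). Without replicate 1 of basal wildtype these differences were -0.61 (adjusted p = 0.0163) and -0.89 (adjusted p = 0.00323). IER3 lies in the major histocompatibility region, and 4 transcripts of its copies on alternate sequences of the genome assembly took 37.6 to 61.9% of its counts (median 48.6%), so the gene sum includes them. The primary transcripts alone averaged 142 and 282 normalized counts in basal and treated wildtype cells and the alternate ones 158 and 235.

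IER5, which binds regulatory subunits of protein phosphatase PP2A, differed between lines more than with isoproterenol, and its paralog IER5L is given beside it. IER5 had 2027, 1605 and 1922 normalized counts at basal and 2272, 2176 and 2196 with isoproterenol in wildtype libraries. The β-arrestin1/2 KO libraries ranged from 3301 to 3732 at basal and from 3129 to 3597 with isoproterenol, and the Gαs KO libraries from 3083 to 3377 and from 3087 to 3597. No library of either KO line was as low as any wildtype library, and the share of all genes separated in this way between lines was not counted. The responses were 0.26 ± 0.0917 in wildtype (adjusted p = 0.365), -0.09 in β-arrestin1/2 KO (adjusted p = 0.827) and 0.04 in Gαs KO cells (adjusted p = 1). IER5L had 356, 200 and 262 at basal and 414, 419 and 428 with isoproterenol in wildtype cells, a difference of 0.62 ± 0.163 (adjusted p = 0.158). Without replicate 1 of basal wildtype that difference was 0.87 (adjusted p = 0.00113). In β-arrestin1/2 KO cells IER5L ranged from 680 to 798 at basal and from 756 to 853 with isoproterenol (0.17, adjusted p = 0.821), and in Gαs KO cells from 325 to 414 and from 343 to 446 (0.07, adjusted p = 1).

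SRF did not differ with isoproterenol in any line beyond its spread. It had 2716, 1574 and 1990 normalized counts at basal and 2125, 1889 and 2106 with isoproterenol in wildtype cells. The ranges were 1333 to 1590 and 1420 to 1535 in β-arrestin1/2 KO cells, and 1821 to 1905 and 1722 to 1955 in Gαs KO cells. The log2 differences were -0.04 (95% interval -0.33 to 0.25), -0.02 (-0.31 to 0.27) and -0.02 (-0.31 to 0.27). With all libraries, a rise or fall of over about 0.33 thus lay outside each interval. Without replicate 1 of basal wildtype, the highest SRF value of its group, the wildtype difference was 0.20 (adjusted p = 0.321), so the wildtype interval depends on that library. The mRNA level does not measure the activity of the SRF protein.

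**Figure D3:**
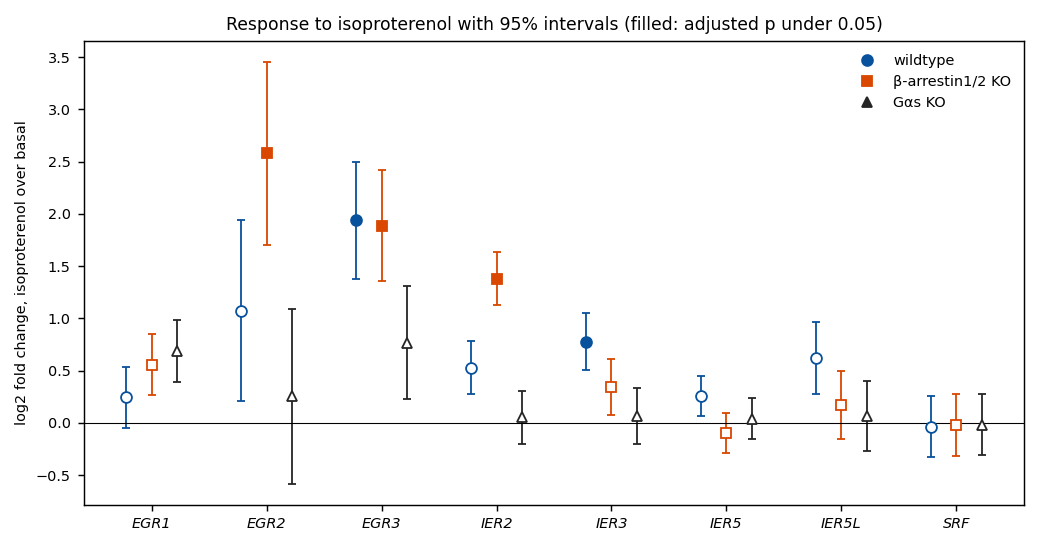
Log2 fold change of isoproterenol over basal (vertical axis) for the 8 members tested in the 3 cell lines, with 95% intervals as bars and filled symbols for an adjusted p under 0.05. EGR3 is 1.94 in wildtype cells and 1.89 in the β-arrestin1/2 KO line, IER2 is 1.38 in β-arrestin1/2 KO against 0.05 in Gαs KO cells, EGR1 is 0.69 in Gαs KO cells, and SRF lies at 0 throughout.

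Counted over the members, EGR3 and IER3 were called in wildtype cells, 2 of 8 tested, beside 0.463% of all genes. EGR2, EGR3 and IER2 were called in β-arrestin1/2 KO cells, 3 of 8, beside 1.07% of all genes. All of these calls were rises, and the median log2 difference over the 8 members was 0.577 in wildtype cells and 0.449 in the β-arrestin1/2 KO line, against 0.0013 and -0.0083 over all genes. In Gαs KO cells 0 of 8 members were called by edgeR, as was 0% of all genes. An unadjusted p under 0.05 was seen for 2 of the 8 (EGR1 and EGR3) and for 152 genes in all (0.963%), and DESeq2's Wald test called 1 member. That share lies below what a cutoff of 0.05 gives where nothing changes. The shared fit thus looks conservative for this line, for a cause that was not tested, and its lack of calls does not show a lack of response. Treated libraries lay above all basal ones for 6 members in wildtype cells (EGR2, EGR3, IER2, IER3, IER5 and IER5L), where 5.01% of all genes did so. In β-arrestin1/2 KO cells they did so for EGR1, EGR2, EGR3, IER2 and IER3 among those tested, beside 15.6% of all genes, and in Gαs KO cells for EGR1, EGR3 and IER2, beside 5.27%. With 3 libraries against 3, an exact permutation test of a single gene cannot give a two-sided p below 0.1. For the difference in response between β-arrestin1/2 KO and wildtype cells 0 of 8 members were called by edgeR (0.146% of all genes), 4 had an unadjusted p under 0.05 (5.48% of all genes) and DESeq2's Wald test called 1, IER2. For Gαs KO minus wildtype 0 of 8 were called by edgeR (0.171% of all genes) and by DESeq2's Wald test, and 5 had an unadjusted p under 0.05 (4.54% of all genes). For β-arrestin1/2 KO minus Gαs KO 1 of 8 was called (0.412% of all genes) and 3 had an unadjusted p under 0.05 (4.72% of all genes). Without replicate 1 of basal wildtype, IER5 (-0.42, adjusted p = 0.0218) and IER5L (-0.69, adjusted p = 0.0209) were also called for β-arrestin1/2 KO minus wildtype, and IER2 (-0.67, adjusted p = 0.00114) and IER5L (-0.80, adjusted p = 0.0487) for Gαs KO minus wildtype. The genes called in all then numbered 1426 in place of 23 and 73 in place of 27. These comparisons share libraries and are not independent of each other.

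At basal, before any agonist, the IER genes apart from IER2 stood higher in both KO lines than in wildtype cells. Of the 8 members, 4 were called in β-arrestin1/2 KO cells, where 34.5% of all genes were called, and 3 in Gαs KO cells, where 32.1% were. With so few members these counts are near those shares, so they do not set the members apart from other genes. IER5L was higher by 1.41 ± 0.162 on the log2 scale (2.65-fold, adjusted p = 5.66e-06), IER3 by 1.10 ± 0.13 (2.15-fold, adjusted p = 7.33e-06) and IER5 by 0.95 ± 0.0921 (1.93-fold, adjusted p = 8.61e-07) in β-arrestin1/2 KO cells. In Gαs KO cells IER5 was higher by 0.81 ± 0.0919 (1.75-fold, adjusted p = 4.7e-06), IER3 by 0.59 ± 0.13 (1.51-fold, adjusted p = 0.0022) and IER5L by 0.48 ± 0.162 (1.4-fold, adjusted p = 0.0308). The basal groups of IER3 and IER5 did not overlap between wildtype and either KO line, whereas the IER5L values of Gαs KO cells (325, 406 and 414) overlapped those of wildtype cells (356, 200 and 262). The share of all genes without overlap between lines was not counted, so this separation is a description only. SRF was lower in β-arrestin1/2 KO cells by 0.49 ± 0.138 (adjusted p = 0.0108) although the groups overlapped, and by 0.27 (adjusted p = 0.0147) without replicate 1 of basal wildtype. That SRF call was lost without replicate 2 of basal β-arrestin1/2 KO cells (-0.42, adjusted p = 0.057) and in a fit to the groups compared alone (adjusted p = 0.174). The IER3 call in Gαs KO cells was lost in that kind of fit too (adjusted p = 0.0763). The IER5L call in Gαs KO cells was lost without replicate 2 or 3 of basal wildtype (0.30 and 0.45) and without replicate 2 or 3 of basal Gαs KO cells (0.45 and 0.42). No basal difference of EGR1, EGR2, EGR3 or IER2 was called in either KO line in the main fit of all 18 libraries. Of 12 other settings, 1 called EGR3 as higher in β-arrestin1/2 KO cells, namely edgeR's test with GC and length offsets (adjusted p = 0.0434). Without replicate 1 of basal wildtype, EGR3 (0.78, adjusted p = 0.0466) and IER2 (0.23, adjusted p = 0.0171) were called as higher in β-arrestin1/2 KO cells. In that fit 7697 of the 15781 genes were called, in place of 5439. Without replicate 2 of basal wildtype, EGR1 (-0.47, adjusted p = 0.00471), IER2 (-0.28, adjusted p = 0.0379) and SRF (-0.35, adjusted p = 0.0248) were called as lower in Gαs KO cells. That fit called 5884 genes in all, in place of 5071. With replicate 1 left out instead, the differences were -0.19 for EGR1 (adjusted p = 0.272), 0.05 for IER2 (adjusted p = 0.638) and 0.05 for SRF (adjusted p = 0.661). None of these was called. The basal comparisons share the wildtype libraries, so both move with them.

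The levels can be ordered over the 6 groups. For EGR1 the order of means was treated β-arrestin1/2 KO (558), treated Gαs KO (456), treated wildtype (414), basal β-arrestin1/2 KO (379), basal wildtype (349) and basal Gαs KO (283), and treated β-arrestin1/2 KO was the one group separated from its neighbour in that order. For EGR3 the treated β-arrestin1/2 KO (132), treated wildtype (90.2) and treated Gαs KO libraries (54.2) were separated from each other, and the last overlapped basal β-arrestin1/2 KO (35.8). For IER2 the order was treated β-arrestin1/2 KO (4575), treated wildtype (2461), basal β-arrestin1/2 KO (1760), basal wildtype (1704), treated Gαs KO (1605) and basal Gαs KO (1548), with the basal groups of β-arrestin1/2 KO and wildtype overlapping each other. For IER5 all 4 KO groups, from 3245 to 3575, overlapped their neighbours and stood above treated (2215) and basal wildtype (1851).

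Beside the members, the genes of the cAMP response moved in the same lines with larger changes. Of 18 listed cAMP-response genes 17 were tested, of which 10 rose in wildtype cells and 11 in the β-arrestin1/2 KO line, 0 fell, and the medians were 1.47 and 1.72. In the Gαs KO line edgeR and DESeq2's Wald test called 0 of them, 1 had an unadjusted p under 0.05, and the median was 0.08. The largest in wildtype cells were the nuclear receptor NR4A2 (3.52), FOS (3.26) and PCK1 (3.23), a gluconeogenic enzyme. Of 21 other serum-response early genes 11 rose in wildtype cells and 14 in the β-arrestin1/2 KO line (medians 0.675 and 1.12), led by FOS (3.26 and 3.56), DUSP1 (2.52 and 3.56), a MAP kinase phosphatase, and JUNB (2.79 and 2.77). Both tools called 0 of these in Gαs KO cells (median 0.0501), where 3 had an unadjusted p under 0.05. FOS, FOSB and DUSP1 are in both lists. The members' medians of 0.577 and 0.449 stood below those of both lists in the same cells, a difference that was not tested. Members and lists were chosen with earlier results of these data known, so the order of these medians is a description only. Of 17 tested actin-cytoskeleton targets of SRF, CCN2 (listed as CTGF), a matrix protein, was the 1 called, with 1.60 in wildtype cells and 1.49 in the β-arrestin1/2 KO line, and the medians were -0.0864 and -0.0336. An unadjusted p under 0.05 was seen for 6 of the 17 in wildtype cells and for CTGF as the 1 gene in each KO line. Without Gαs CTGF had a log2 difference of 0.59 that was not called (unadjusted p = 0.00121). Of 8 SRF cofactors and partners 5 were tested, and 0 were called by edgeR in any of the 3 responses, with an unadjusted p under 0.05 for 1 in wildtype cells. The corepressors NAB1 and NAB2 were not called in any response either (0 with an unadjusted p under 0.05), and NAB2 was higher in basal Gαs KO than wildtype cells (0.59, adjusted p = 0.0292).

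**Figure D4:**
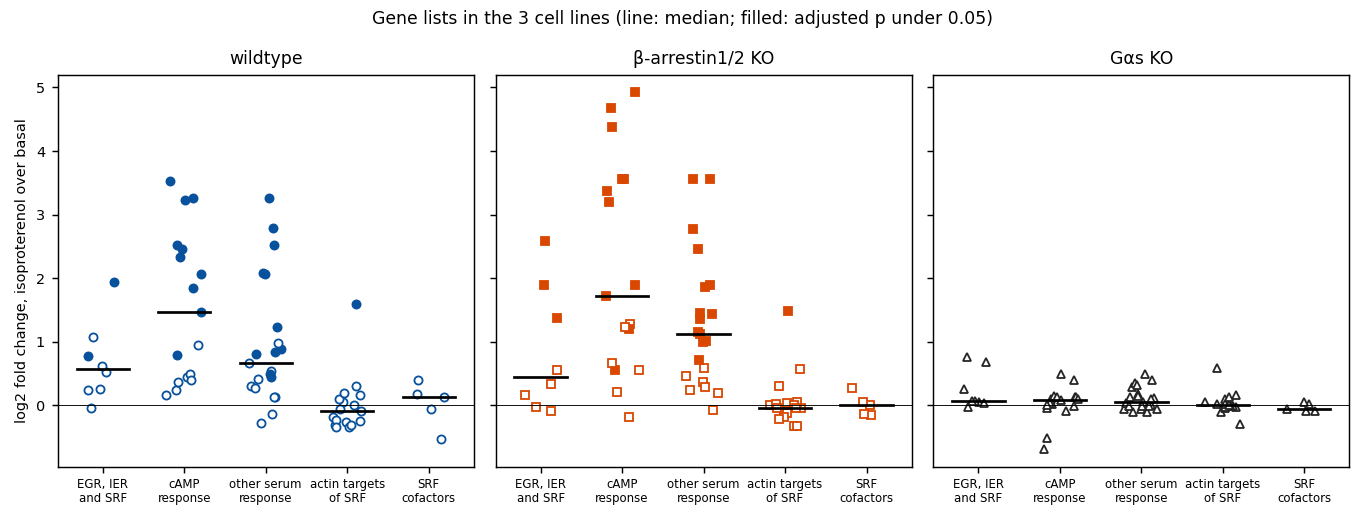
Log2 fold change of isoproterenol over basal (vertical axis) for each tested gene of 5 lists in the 3 cell lines, with a line at the median of each list and filled symbols for an adjusted p under 0.05. In the panels from left to right, medians for the cAMP-response list are 1.47, 1.72 and 0.08, against 0.577, 0.449 and 0.0662 for the EGR, IER and SRF genes.

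At basal 14 of 17 cAMP-response genes were lower in Gαs KO than in wildtype cells and 0 were higher, among them PCK1 by a log2 difference of -4.03 and NR4A1 by -3.18. Of all genes, 32.1% were called there in either direction. Of the IER genes, IER3, IER5 and IER5L were higher there, although the IER5L call held in 2 of 6 fits with a library left out, and IER2 had a difference of -0.14 (adjusted p = 0.397). The lists were not compared by a test. In β-arrestin1/2 KO cells 4 of the 17 were higher and 6 lower, and of the 21 other serum-response early genes 10 were higher and 2 lower. Of all genes, 34.5% were called in that comparison in either direction.

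The profiles of 4 members over the 18 libraries were compared with those of all tested genes by Pearson correlation of log2 CPM, as a description over libraries that share lines and treatments. The profile most like that of EGR1 was EGR3 (r = 0.789), and the 4 next were ANKRD37, ESM1, FNDC11 and ACVR1. IER2 was most like TOB1 (r = 0.971), then MAFK, DUSP1, SIK1B and GADD45B. For IER5 the closest was BMF (r = 0.969), followed by VPS9D1, ZNF703, ITGA3 and ELFN2, and for SRF GTPBP2 (r = 0.961), followed by SEC14L1, NECTIN2, KIF1C and SIL1. The r of 0.789 for EGR1 was the lowest of these 4 best matches.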

How the data were processed

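Poly(A) RNA of 18 libraries was sequenced. The authors deposited expected counts, Salmon's estimates of read pairs per transcript (version 1.7.0 per the submitters' processing notes), without normalization for depth or length. The transcript index is not given in the sources used here. All 18 sample columns were used. Of 184844 transcripts, 161798 were joined to GENCODE release 29 by identifier and 10576 on alternate assembly sequences by gene symbol, which kept 95.7 to 96.1% of the counts, and gene sums were rounded. Levels per length divide by transcript length.

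R 4.3.3 with edgeR 4.0.16 was used: TMM scaling, filterByExpr by group (15781 genes left), and one quasi-likelihood fit of all 18 libraries with a coefficient per group, adjusted by Benjamini-Hochberg. Intervals of 95% use the t quantile of the fit. DESeq2 1.42.0, as in the study, was an alternative, beside other scalings, filters, thresholds and samples, GC and length offsets, a replicate block and each library left out. Same-numbered libraries had correlated departures from their group means of -0.102 to 0.102 and were treated as unpaired. In simulated data 87% of 3-fold and 41% of 1.5-fold changes in wildtype cells were recovered, with 9 unchanged genes called. In the β-arrestin1/2 KO response, to which no change was simulated, 0 genes were called. For the difference β-arrestin1/2 KO minus wildtype, 79% and 13% were recovered, with 6 unchanged genes called.

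The members, gene lists and tests were chosen with earlier results of these data known. Named are the 9 members, the targeted genes, member transcripts with at least 5% of a gene's counts, at most 5 called genes per list and comparison with the largest difference, and the 5 genes most like EGR1, IER2, IER5 and SRF. The values of 1 other gene in this rule are not reported here. Figures were drawn with Python 3.11.15 and matplotlib 3.10.9.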

Additional observations from a re-analysis of the deposited data

Results flagged for a closer look

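The IER2 response in β-arrestin1/2 KO cells exceeded that in Gαs KO cells by 1.33 ± 0.167 on the log2 scale (edgeR's quasi-likelihood test of the difference, adjusted p = 0.000335). It was singled out because the test of the difference between the responses itself passed the threshold. All 3 treated β-arrestin1/2 KO libraries (4453, 4498 and 4773 normalized counts) stood above their basal libraries, and the treated Gαs KO libraries lay between 1562 and 1666. The difference was called under 12 of 12 other settings and with each of the 12 libraries left out in turn, with log2 values from 1.26 to 1.49.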

How the results depend on the processing

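The number of the 8 tested members called was 2 in wildtype cells. This number became 4 under DESeq2's Wald test, 0 in a fit to the wildtype libraries alone, 4 with GC and length offsets, 5 with these offsets and the replicate block, 3 with all genes of at least 1 count (IER2 added), and 1 to 4 with 1 library left out. In β-arrestin1/2 KO cells it was 3, and it was 5 in a fit to these libraries alone, 6 with GC and length offsets, 5 with the offsets and the replicate block, and 3 with any library left out. Over all genes, 73 were called in wildtype cells, against 176 with DESeq2's Wald test, 12 in a fit to these libraries alone, 230 with the offsets and 222 with the offsets and the block, while for the β-arrestin1/2 KO line the 169 genes became 290, 1308, 402 and 400 in that order. In Gαs KO cells the 0 became 1, EGR1, with DESeq2's Wald test and in a fit to the Gαs KO libraries alone. For the difference β-arrestin1/2 KO minus wildtype, the 0 became 1 with DESeq2's Wald test, with all genes of at least 1 count, with GC and length offsets and with the offsets and the replicate block, and 0 to 4 with 1 library left out. For Gαs KO minus wildtype it became 3 with the offsets, 2 with the offsets and the block, and 0 to 3 with 1 library left out. For β-arrestin1/2 KO minus Gαs KO the 1 became 2 with DESeq2's Wald test and with the groups compared alone. The basal count was 4 for β-arrestin1/2 KO (3 in a fit to the groups compared alone, where SRF was not called, and 3 to 6 with 1 library left out) and 3 for Gαs KO cells (1 in a fit to the groups compared alone, 2 to 5 with 1 library left out). With GC and length offsets EGR3 was called as well at basal in β-arrestin1/2 KO cells. Without replicate 1 of basal wildtype, 4 members were called in wildtype cells and 4 and 3 in the differences of β-arrestin1/2 KO and Gαs KO from wildtype. The basal IER5L difference of Gαs KO cells was called in 2 of 6 fits with a library left out (0.30 to 0.72). The replicate block alone changed no count of members. The cause of these changes was not tested.

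SRF lay so near 0 that its sign turned. With GC and length offsets, without and with the replicate block, its log2 response was 0.131 and 0.132 in wildtype and 0.117 and 0.118 in β-arrestin1/2 KO cells, and the differences from wildtype were -0.0139 and -0.0136 for β-arrestin1/2 KO and -0.149 and -0.151 for Gαs KO. For β-arrestin1/2 KO minus Gαs KO it was 0.135 and 0.137 with the offsets, 0.000806 with relative log expression scaling, 0.000747 with DESeq2, 0.00299 with at least 10 counts in every library, 0.00903 with the groups compared alone, 0.00327 with the replicate block, 0.00227 with unmatched transcripts kept and 0.00147 with primary transcripts alone, a setting chosen after seeing the data. With 1 library left out, SRF ranged from -0.21 to 0.20 in wildtype, -0.0923 to 0.0363 in β-arrestin1/2 KO and -0.0689 to 0.0229 in Gαs KO cells, from -0.21 to 0.19 and -0.22 to 0.19 in the differences of β-arrestin1/2 KO and Gαs KO from wildtype, from -0.0737 to 0.0572 between the KO lines, and from -0.35 to 0.0510 at basal in Gαs KO cells. In Gαs KO cells the IER5 response then ranged from -0.0145 to 0.0957 and the IER5L response from -0.0367 to 0.166, and the EGR3 difference of β-arrestin1/2 KO from wildtype from -0.24 to 0.23. Basal differences ranged from -0.0504 to 0.233 for EGR1 and -0.0956 to 0.229 for IER2 in β-arrestin1/2 KO, and from -0.28 to 0.0475 for IER2 in Gαs KO cells. No value whose sign had turned was called. Of 760 member values under other settings 706 kept their direction and side of the threshold, as did 475 of 528 with a library left out. Levels per length with the longest transcript's length moved by over 1 SD in 46 of 54 group means. Depth limits EGR4 most, and then EGR2 and EGR3.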
